A study of Bos taurus with 9 samples.

Results

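The HOX cluster genes were read out in bovine endometrial cells (BEND), the cells of the lining of the cow uterus, grown in primary culture from slaughtered cows. They were chosen by name, as every gene whose symbol is HOX followed by a cluster letter (A to D) and a number, without use of any measured value. This gave 36 HOX genes of 17162 genes in the table, with 11 in HOXA, 8 in HOXB, 9 in HOXC and 8 in HOXD. HOXB1, HOXB13 and HOXD1 were not analysed here. RNA was sequenced in 9 libraries, 3 in each group. The control group (CON) received no added agent. GA was given estradiol (E2, 1 nM) and progesterone (P4, 100 nM) for 12 h, and GB was given the same E2 and P4 and then interferon tau (IFNT, 100 ng/mL), for an additional 12 h according to the methods. All groups grew in medium with serum, so that CON was not free of hormones from serum, and the sources used here do not say whether CON and GA were collected at the same time as GB. Replicates are called biological by the methods, but no source used here says whether they came from different cows, so p-values measure the spread between these libraries.

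HOX genes encode transcription factors that bind DNA through a homeodomain. They lie in 4 clusters, and within a cluster the paralog number follows the position of the gene, with low numbers at the anterior end, which are used in the front of the embryo, and high numbers at the posterior end, which are used in the hind trunk, the genital tract and the limbs. Along the female reproductive tract, HOXA9 marks the oviduct, HOXA10 the uterus, HOXA11 the uterus and cervix, and HOXA13 the upper vagina. In the adult endometrium, HOXA10 and HOXA11 are needed for implantation, and sex steroids are known to regulate them. E2 and P4 prepare the endometrium for the embryo, and IFNT is the signal by which the ruminant conceptus is recognised.

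Genes known to respond to the treatments were checked first. GREB1, a target of the estrogen receptor, was called higher in GA than in CON with a log2FC of 2.02. It was the only 1 of the 4 hormone genes tested that passed in GA vs. CON. PGR (log2FC 0.41, limma adjusted p = 0.0628), FKBP5 (0.28, 0.0905) and ESR1 (-0.0049, 0.989) did not pass. The hormone response in GA vs. CON thus rested on GREB1. The 5 interferon genes checked (ISG15, MX1, MX2, RSAD2 and OAS2) were called higher in GB than in both other groups. ISG15 lay at 1.76 to 7.01 FPKM in CON and GA and at 5536 to 5616 FPKM in GB. The cells are labelled endometrial epithelial cells, and markers of several cell types were therefore examined. Of 12 epithelial markers, 11 were in the table and only 1, PAX8 (3.21 to 5.72 FPKM), reached a mean of 0.5 FPKM. KRT18, the cytokeratin by which the culture was identified, lay at 0.16 to 0.67 FPKM, CDH1 at no more than 0.14, and KRT19 at no more than 0.62. Listed at 0 were KRT7 and ESRP1 in 6 libraries, FOXA2 in 7, CLDN7 in 8, CLDN4 in 3, KRT8 in 2 and CDH1 in 1. The 10 stromal fibroblast markers were all present, led by VIM, COL1A2 and COL1A1, and their sum lay at 17169 to 17746 FPKM in the CON libraries, at 17340 to 17740 with hormones alone (GA) and at 15539 to 15641 with IFNT (GB). Smooth muscle markers, led by TAGLN, ACTA2 and CNN1, summed to 7862 to 8953 FPKM, lowest in the GB libraries. Endothelial markers, led by CDH5, ESAM and VWF, summed to 1.81 to 4.03 FPKM, with KDR at 0 in 2 libraries, and immune markers, led by CD14, CD68 and TYROBP, to 22.3 to 28.3, with TYROBP at 0 in 2. The label thus went against the measured RNA of these markers, though not against the protein staining of the study. The cells are called BEND here without a cell type.

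The 4 clusters were expressed in a graded but not a smooth order along their length. FPKM counts fragments relative to exon length and to the mapped reads of a library, so that levels can be set side by side between genes. Genes of paralog groups 9 to 11 carried between 73.2% and 78.3% of the summed FPKM of all 36 HOX genes in every library, although they are 10 of the 36. Group 3 carried 1.24% to 2.13%, and group 13 carried 1.10% to 1.4%. The posterior end was therefore not the highest: the highest level lay at group 10 in HOXA and at group 11 in HOXD, and both clusters were low at group 13. HOXB and HOXC were expressed mainly in their middle genes, HOXB6, HOXB7, HOXC6 and HOXC9.

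**Figure D1:**
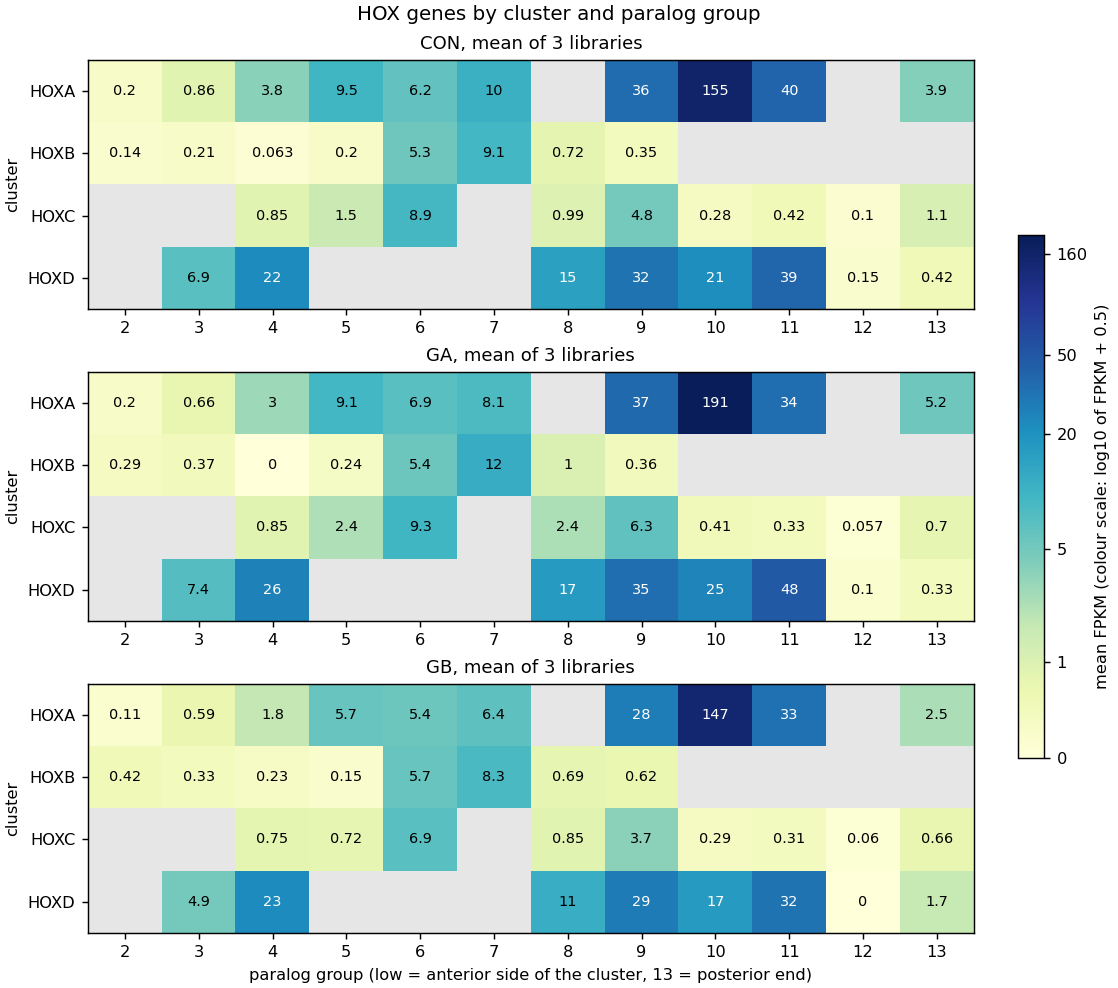
Mean FPKM of HOX genes by cluster (rows) and paralog group (columns, 2 to 13), 1 panel per group of 3 libraries; the number in a cell is the mean, the colour follows log10(FPKM + 0.5), and grey cells hold no HOX gene with values here. HOXA10 is the darkest cell in all 3 panels, and groups 9 to 11 of HOXA and HOXD form the dark block of each panel.

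HOXA was the most abundant cluster, with 57.0% to 62.3% of the HOX sum. HOXA10, the uterine selector gene, ranked first among HOX genes in all 9 libraries, with 37.6% of the HOX sum, and its mean of 164 FPKM was above that of 92.0% of all genes. It measured 151, 112 and 202 FPKM in CON, 196, 163 and 214 in GA and 151, 163 and 126 in GB. HOXA10 was thus variable within CON, and CON spanned nearly all of the range of the other groups. Its neighbours HOXA11 and HOXA9 followed with means of 35.7 and 33.4 FPKM, ranking between 2 and 5 in every library. HOXA11 measured 47.4, 31.7 and 40.6 FPKM in CON, 34.4, 36.5 and 31.8 in GA and 26.6, 30.3 and 41.9 in GB, with all groups overlapping. HOXA9 measured 38.9, 27.7 and 40.5 FPKM in CON, 32.8, 40.4 and 37.6 in GA and 25.5, 28.6 and 29.1 in GB. Every GB library of HOXA9 lay below every GA library, whereas CON2 lay among the GB libraries. HOXA13, the most posterior gene of the cluster, had a mean of only 3.88 FPKM. The middle genes HOXA5, HOXA6 and HOXA7, active in the thoracic part of the embryo, had means of 8.09, 6.16 and 8.34 FPKM, and HOXA4 had 2.84. HOXA3 measured 0.26 to 1.42 FPKM, and the anterior gene HOXA2, which acts in the hindbrain, stayed at or below 0.31 FPKM.

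HOXD was the other large cluster, with 29.9% to 34.5% of the HOX sum. HOXD11, a gene of limb and urogenital patterning, ranked second overall with a mean of 39.7 FPKM, and HOXD9 (31.7), HOXD4 (23.6), HOXD10 (21.0) and HOXD8 (14.3) came next. HOXD9 was the steadiest of them in CON, at 32.4, 31.5 and 31.9 FPKM, against 37.0, 31.7 and 35.1 in GA and 25.4, 31.8 and 28.5 in GB. Its GA and GB libraries overlapped by a small margin, since GB2 (31.8) lay just above GA2 (31.7). HOXD4, which lies at the anterior side of the cluster next to HOXD3, stood out from its paralogs, as HOXA4 had 2.84 FPKM, HOXC4 0.818 and HOXB4 0.0967. HOXD3 had a mean of 6.39 FPKM. The spans of HOXD3 and HOXD4 overlap in the RefSeq annotation (ARS-UCD2.0), and how fragments were divided between them is uncertain. The posterior genes HOXD12 and HOXD13 were low, with HOXD12 at 0.31 FPKM or less and listed at 0 in 6 libraries.

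HOXB carried 3.52% to 4.70% of the HOX sum, nearly all of it from HOXB7 and HOXB6, with means of 9.67 and 5.45 FPKM. HOXB7 measured 9.84, 6.21 and 11.3 FPKM in CON, 13.7, 7.89 and 13.1 in GA and 9.2, 8.07 and 7.68 in GB. HOXB6 measured 4.43, 5.93 and 5.50 FPKM in CON, 3.68, 6.36 and 6.2 in GA and 6.64, 4.14 and 6.17 in GB. No order of the groups was seen for either gene. HOXB8 had a mean of 0.811 FPKM. The other 5 HOXB genes, HOXB2, HOXB3, HOXB4, HOXB5 and HOXB9, did not reach a mean of 0.5 FPKM, so the stretch at low level ran from HOXB2 to HOXB5.

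HOXC carried 2.97% to 5.61% of the HOX sum. HOXC6 and HOXC9 led with means of 8.38 and 4.95 FPKM, HOXC5 and HOXC8 had 1.54 and 1.41, and HOXC4 and HOXC13 had 0.818 and 0.831. HOXC10, HOXC11 and HOXC12 lay under the limit of 0.5 FPKM. Paralogs of 1 group thus differed widely in level: within group 10, HOXA10 had 164 FPKM, HOXD10 21.0 and HOXC10 0.328.

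**Figure D2:**
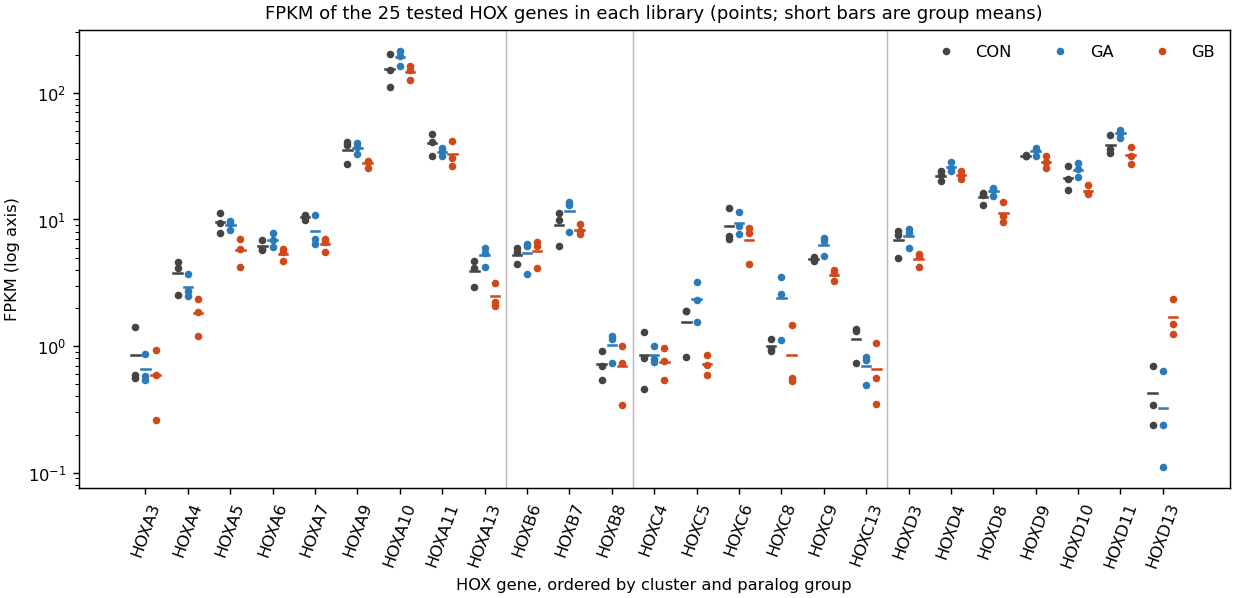
FPKM (log axis) of the 25 HOX genes that could be tested, ordered by cluster and paralog group; points are libraries (CON grey, GA blue, GB orange) and short bars are group means. Levels span from 0.11 FPKM for HOXD13 in 1 GA library to 214 FPKM for HOXA10, and HOXD13 is the gene whose GB points stand apart above the others.

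Summed over the 36 genes, HOX expression was 437 ± 79.2 FPKM in CON, against 495 ± 29.6 in the GA and 379 ± 16.5 in the GB libraries (SD, n = 3 each). The CON libraries measured 439, 357 and 516 FPKM, the GA libraries 493, 467 and 526, and the GB libraries 369, 398 and 370. Every GB library lay below every GA library, while the CON libraries reached beyond GB below and nearly as high as GA. This spread in CON ran through many HOX genes. CON2 was the lowest CON library for 16 of the 25 tested HOX genes and CON3 the highest for 15, with both true for 12. These orders were not counted over all genes, so they are not shown to be particular to HOX genes. The median log2FC of all genes in GA vs. CON also moved, from 0.061 to 0.043 without CON2 and to 0.078 without CON3. Among the 15 genes with a mean of at least 5 FPKM, the median coefficient of variation was 18.6% for CON, against 12.4% for GA and 12.1% for GB. Among the 10 under 5 FPKM it was 29.6%, 25.3% and 32.9% in the same order, highest in GB. By cluster, HOXA held 60.7%, 59.6% and 60.7% of the HOX sum in CON, GA and GB, and HOXD held 31.3%, 31.9% and 31.2%. These are bulk samples, in which fewer cells of a type and less RNA per cell cannot be told apart.

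**Figure D3:**
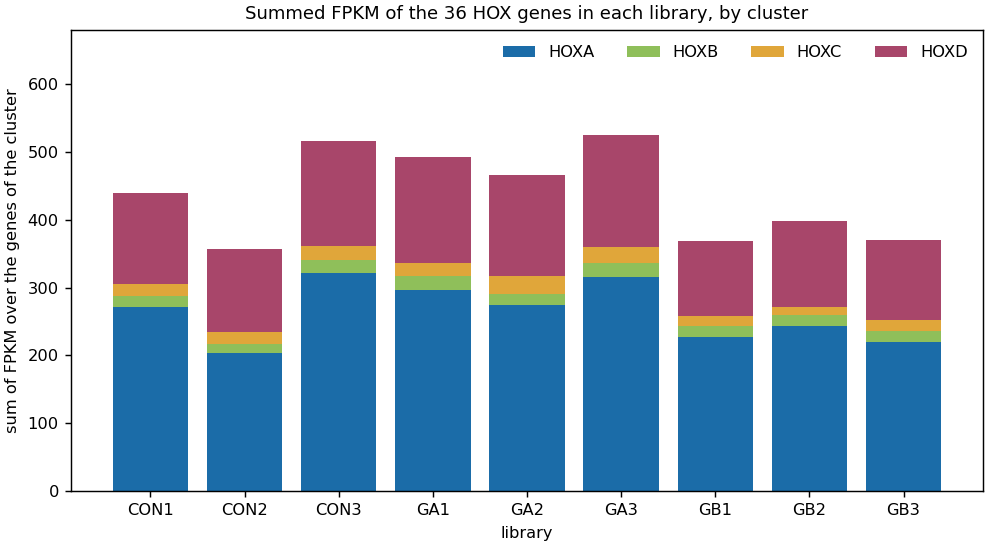
Summed FPKM of the HOX genes in each library, stacked by cluster. The 3 GB libraries (369, 398 and 370 FPKM) stand below the 3 GA libraries (493, 467 and 526), and CON ranges from 357 to 516.

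For the tests, the values were taken as log2(FPKM + 0.5), and log2FC is the difference of group means on that scale, which understates the change of low genes. Of the 36 HOX genes, 25 passed the limit of a mean of 0.5 FPKM over the 9 libraries (9 HOXA, 3 HOXB, 6 HOXC and 7 HOXD). The 11 others had means of 0.0722 to 0.446 FPKM and no library above 0.86, and no difference could be tested for them. Adjusted p is the Benjamini-Hochberg value of limma over all 12578 genes tested. A gene was called when the adjusted p was under 0.05 and the log2FC above 1 or below -1, the limits that the study used.

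The first comparison, GA vs. CON, asks what E2 and P4 did to the HOX genes. No HOX gene passed limma's test at an adjusted p under 0.05, against 0.453% of all genes, none was called, against 0.0716%, and 3 passed at an unadjusted p under 0.05 (HOXC8, HOXC9 and HOXD4), against 19.3% of all genes. The fold changes leaned upwards, with 18 of 25 HOX genes above 0 and a median log2FC of 0.11, beside 0.061 for all genes tested. Of all genes, 34.0% lay below 0, and of the HOX genes 7 of 25. In 2 HOX genes, HOXC9 and HOXD4, every GA library lay above every CON library, a pattern that 18.6% of all genes showed. No HOX gene had every GA library below every CON library, as 6.13% of all genes did. HOXD4 measured 22.2, 20.1 and 24.3 FPKM in CON and 24.3, 25.4 and 28.4 in GA, a margin of almost nothing between the closest libraries, with a log2FC of 0.22 (SE 0.09, limma adjusted p = 0.222).

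HOXA10 was 1.23-fold higher in GA by its means, with a log2FC of 0.33 (95% interval -0.11 to 0.77, limma adjusted p = 0.374). HOXA11 went the other way, with a log2FC of -0.20 (95% interval -0.60 to 0.20, limma adjusted p = 0.559). The intervals leave room for a moderate rise of HOXA10 and a moderate fall of HOXA11, and only for smaller changes the other way. In the fit with each library's GC content as a covariate, the log2FC of HOXA10 was -0.23 and the median of the 25 HOX genes -0.16. The median of all genes turned as well, from 0.061 to -0.012, and 0% of all genes passed in that fit. The upward lean in GA thus depended on that setting, in HOX genes and over the whole table.

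GB vs. CON compares cells given E2, P4 and IFNT with untreated cells. HOXD13, the last gene of the HOXD cluster, rose, and 4 genes fell, HOXA4, HOXA5, HOXA7 and HOXD8. These 5 of 25 (1 higher, 4 lower) stand beside 33.5% of all genes at an adjusted p under 0.05, 16.2% higher and 17.3% lower. HOXD13 was the only HOX gene called, beside 4.01% of all genes called in either direction, 2.94% higher and 1.07% lower. It passed the limit of 0.5 FPKM only through its GB values, so its call is not independent of the filter. The fold changes of the others leaned downwards, with 22 of 25 below 0 (52.6% of all genes) and a median of -0.30 (all genes: -0.016). With library GC content as a covariate this median was -0.61, and -0.085 for all genes. All 9 tested HOXA genes and all 6 tested HOXC genes lay below 0.

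HOXD13 measured 0.69, 0.24 and 0.34 FPKM in CON, 0.24, 0.11 and 0.63 in GA and 1.25, 2.34 and 1.49 in GB. Each GB library lay above the 6 others, a pattern against CON that 22.2% of all genes showed and against GA 15.7%, and the group means differed 4-fold between GB and CON. The log2FC was 1.25 (SE 0.31, limma adjusted p = 0.0133). HOXD13 is a low gene that passed the limit of 0.5 FPKM only through GB, as its mean over CON and GA was 0.375. Its highest value in CON and GA was 6.27 times its lowest, so that, if the lowest stood for a single fragment, these libraries held only a few fragments each. With a pseudocount of 1 in place of 0.5 the log2FC was 0.91 and HOXD13 was no longer called. Without GB2 the log2FC was 1.05 (adjusted p = 0.0526), and with library GC content as a covariate it was 0.44 (adjusted p = 0.663), with a range of 0.0103 to 0.966 over 20 alternatives.

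Of the genes that fell, 3 lay close together in the middle of HOXA. HOXA5 measured 9.30, 7.83 and 11.3 FPKM in CON, 9.64, 9.35 and 8.30 in GA and 7.05, 4.22 and 5.81 in GB. All 3 GB libraries lay below all CON and GA libraries, and the log2FC was -0.70 (SE 0.18, limma adjusted p = 0.0152). HOXA7 measured 10.9, 10.6 and 9.96 FPKM in CON, 6.98, 10.9 and 6.37 in GA and 5.55, 7.02 and 6.67 in GB. GB lay wholly below CON, with a log2FC of -0.68 (SE 0.18, limma adjusted p = 0.0167), and 2 of the 3 GA libraries lay within the range of GB. HOXA4 measured 2.54, 4.12 and 4.6 FPKM in CON, 2.70, 2.47 and 3.69 in GA and 1.87, 2.37 and 1.21 in GB. GB lay below both other groups, and the log2FC against CON was -0.87 (SE 0.25, limma adjusted p = 0.0253). HOXA6, which lies between HOXA5 and HOXA7, measured 5.82, 5.74 and 6.92 FPKM in CON against 4.71, 5.58 and 5.80 in GB, overlapped and did not pass the test. The spans of HOXA3, HOXA4, HOXA5 and HOXA6 overlap in the RefSeq annotation (ARS-UCD2.0), and how fragments shared by neighbours were divided is uncertain.

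HOXD8 fell less, with a log2FC of -0.40 (SE 0.13, limma adjusted p = 0.0422). It measured 15.7, 13.1 and 16.1 FPKM in CON, 17.1, 17.7 and 15.4 in GA and 9.62, 10.6 and 13.7 in GB. GB3 lay above CON2, so CON and GB overlapped. HOXC9 measured 4.75, 4.70 and 5.09 FPKM in CON against 3.98, 3.26 and 3.76 in GB, without overlap, but its adjusted p by limma was 0.0577. With it, 4 HOX genes had all GB libraries below all CON libraries (HOXA4, HOXA5, HOXA7 and HOXC9), beside 23.9% of all genes.

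The uterine genes did not pass the test against CON. HOXA10 had a log2FC of -0.04 (95% interval -0.48 to 0.40), HOXA11 -0.28 (-0.68 to 0.12) and HOXD11 -0.27 (-0.58 to 0.04). HOXA9 had a log2FC of -0.34 (limma adjusted p = 0.0904), and without CON2, its lowest CON library, of -0.51 (adjusted p = 0.00503, range 0.00503 to 0.248 over 21 alternatives).

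All 5 genes with an adjusted p under 0.05 against CON lost it without at least 1 of the libraries, HOXD13 as given above. The adjusted p by limma was 0.051 for HOXA5 without CON3 and 0.058 for HOXA7 without GB1. For HOXA4 it was 0.0753 without CON2, 0.0821 without CON3, 0.053 without GB1 and 0.0811 without GB3. For HOXD8 it ranged from 0.0515 to 0.134 without CON1, CON3, GA1, GA2, GA3, GB1 or GB2. With library GC content as a covariate 11.7% of all genes passed, in place of 33.5%. None of the 5 passed in this fit, and 2 others did, HOXA9 and HOXD10. The log2FC in that fit was -0.82 for HOXA5, -0.61 for HOXA7, -0.70 for HOXA4 and -0.76 for HOXD8, of the same direction and of similar or larger size, while that of HOXD13 shrank. The summed stromal and smooth muscle markers were also lowest in GB, as given above, and their part in these differences was not tested.

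**Figure D4:**
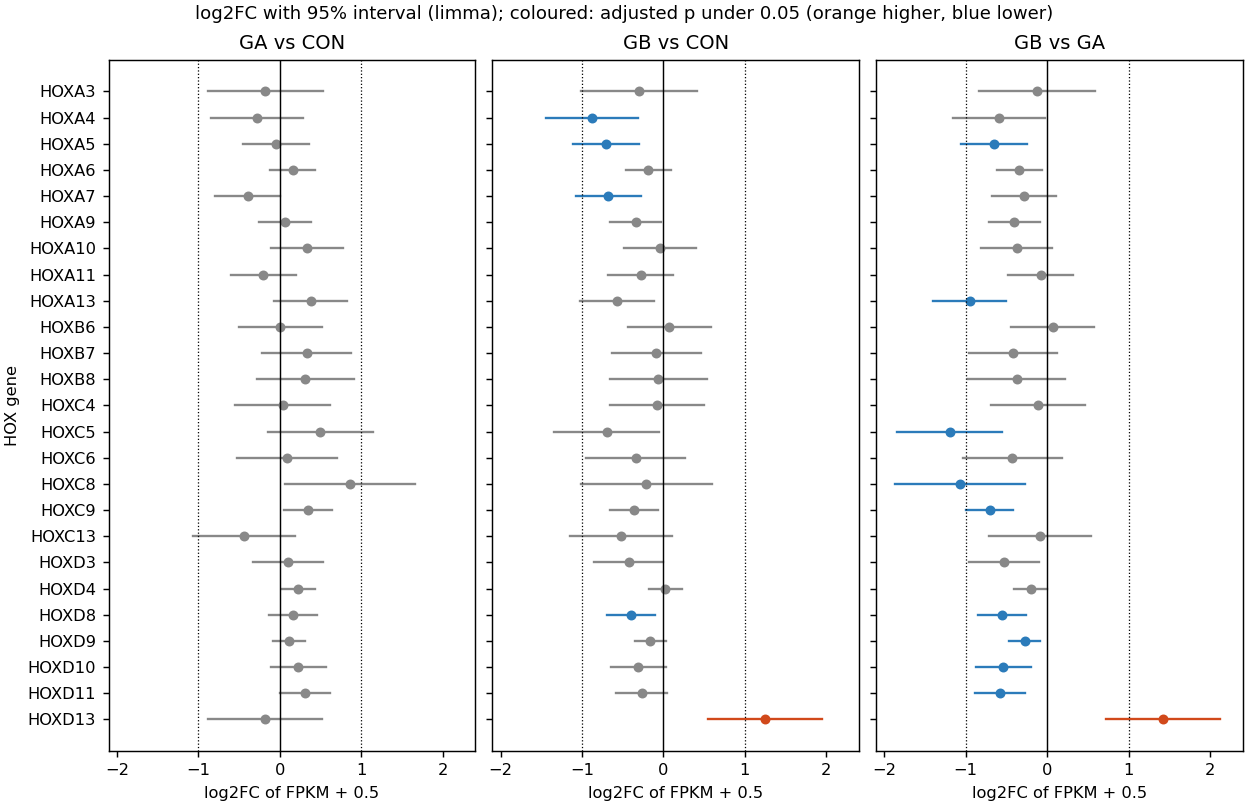
log2FC of the 25 tested HOX genes with 95% intervals from limma in the 3 comparisons, ordered by cluster and paralog group; orange and blue mark genes higher and lower at an adjusted p under 0.05, and dotted lines mark log2FC of -1 and 1. GA vs. CON holds no coloured gene, GB vs. CON holds 5 and GB vs. GA holds 10. HOXD13 is the only orange gene, and it entered the tests only through its GB values.

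The third comparison, GB vs. GA, has the same doses of E2 and P4 and adds IFNT. As GA may have been collected before GB, the time in culture and with hormones may also differ. HOXD13, which passed the limit of 0.5 FPKM only through its GB values, was higher again. Its place in the counts below is therefore not independent of the filter. The 9 HOX genes that fell were HOXC9, HOXA13, HOXD8, HOXD11, HOXC5, HOXA5, HOXD10, HOXD9 and HOXC8. The falling genes came from the middle and posterior HOXD genes (HOXD8, HOXD9, HOXD10 and HOXD11), from HOXC and from 2 separate places in HOXA. These 10 of 25 stand beside 29.0% of all genes at an adjusted p under 0.05, with the 9 that fell beside 19.2% of all genes lower and HOXD13 beside 9.87% higher. Called at the stricter limit were HOXD13, HOXC5 and HOXC8, 3 of 25 beside 3.64% of all genes, with the 2 lower ones beside 0.978% and the higher one beside 2.66%. Of 25 HOX genes 23 lay below 0 (62.3% of all genes), with a median log2FC of -0.40 (all genes: -0.075). The exceptions were HOXD13 and HOXB6. In 13 HOX genes every GB library lay below every GA library, beside 31.0% of all genes: HOXA4, HOXA5, HOXA6, HOXA9, HOXA10, HOXA13, HOXC5, HOXC9, HOXD3, HOXD4, HOXD8, HOXD10 and HOXD11. GB vs. CON and GB vs. GA share the GB libraries, so that their values are not independent of each other.

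HOXC9, a thoracic gene, changed with the smallest p. It measured 4.75, 4.70 and 5.09 FPKM in CON, 6.80, 5.13 and 7.08 in GA and 3.98, 3.26 and 3.76 in GB. The 3 groups did not overlap at all, with GA highest and GB lowest, and GB differed from GA by a log2FC of -0.71 (SE 0.13, limma adjusted p = 0.00337). HOXA13, known for its role in the hindmost genital tract and the digits, measured 4.13, 2.94 and 4.73 FPKM in CON, 5.48, 4.24 and 5.98 in GA and 3.14, 2.21 and 2.08 in GB. GB lay below GA, and CON lay between with some overlap on both sides. The log2FC of GB vs. GA was -0.95 (SE 0.20, limma adjusted p = 0.00682), a mean 0.473 times that of GA. Of its paralogs, HOXC13 had a log2FC of -0.08 and overlapped, and HOXD13 is described next.

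HOXD13, which entered the tests only through its GB values, had 5.18 times the mean of GA in GB, with a log2FC of 1.43 (SE 0.31, limma adjusted p = 0.00800). Its neighbour HOXD12 was listed at 0 in the 3 GB libraries and at 0.31, 0 and 0 in GA. HOXD11, 2 genes away, went down: it measured 33.8, 36.3 and 46.8 FPKM in CON, 48.5, 44.0 and 51.3 in GA and 31.6, 37.3 and 27.6 in GB. GB lay below GA and overlapped CON, with a log2FC against GA of -0.58 (SE 0.14, limma adjusted p = 0.0122). HOXD10 measured 20.7, 17.1 and 26.2 FPKM in CON, 21.6, 25 and 27.8 in GA and 15.9, 16.1 and 18.8 in GB. Again GB lay below GA and overlapped CON, with a log2FC of -0.54 (SE 0.15, limma adjusted p = 0.0253). HOXD8, whose values stand above, had a log2FC of -0.56 (SE 0.13, limma adjusted p = 0.0112) and no overlap, and HOXD9 one of -0.27 (SE 0.09, limma adjusted p = 0.0385) with GA2 and GB2 at the same level. HOXD10 and HOXD11 overlap each other in the RefSeq annotation, and how fragments were divided between them is uncertain.

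HOXC5 and HOXC8 were the genes called lower, both at low levels. HOXC5 measured 1.90, 1.89 and 0.82 FPKM in CON, 2.31, 3.19 and 1.56 in GA and 0.59, 0.71 and 0.85 in GB. All GB libraries lay below GA, and CON3 lay among the GB libraries. The log2FC was -1.19 (SE 0.29, limma adjusted p = 0.0126). HOXC8 measured 1.13, 0.94 and 0.91 FPKM in CON, 1.12, 3.52 and 2.56 in GA and 0.53, 1.46 and 0.56 in GB. GB2 lay above GA1, so the groups overlapped, and the log2FC of -1.07 (SE 0.35, limma adjusted p = 0.0489) rested on the pair of high GA libraries. With a pseudocount of 1, HOXC5 and HOXC8 passed the test but were no longer called, at log2FC of -0.94 and -0.85. HOXC6, the most abundant gene of the cluster, measured 7.67, 11.4 and 8.89 FPKM in GA and 7.85, 4.43 and 8.55 in GB, overlapped and did not pass the test.

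In HOXA, HOXA5 fell again, by a log2FC of -0.66 (SE 0.18, limma adjusted p = 0.0227). HOXA10 was lower in GB than in GA in every library, but only by the margin between 163 FPKM in GA2 and 163 in GB2, and its log2FC of -0.38 (95% interval -0.82 to 0.06) had an adjusted p by limma of 0.186. HOXA9 had a log2FC of -0.40 (limma adjusted p = 0.0575) and HOXA11 one of -0.08 (95% interval -0.48 to 0.32, limma adjusted p = 0.777). The uterine pair HOXA10 and HOXA11 therefore passed no test in any comparison, and a log2FC of -1 or 1 lay outside each of their 95% intervals.

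HOXA13, HOXC5, HOXC9, HOXD8 and HOXD11 passed limma's test against GA under all 21 alternatives. HOXA5 had adjusted p of 0.0699 without GA1, 0.0651 without GA2 and 0.0616 without GB2, and HOXD10 had 0.0676 to 0.0912 without GA2, GA3, GB1 or GB2. HOXC8 reached 0.158 without GA2, with 0.135 to 0.141 without GA3, GB1 or GB3 and 0.0623 to 0.0651 without 1 of the CON libraries, and it did not pass in 14 of 21 alternatives, with 0.0528 to 0.0609 under the other scalings. HOXD9 reached 0.125 without GA1, with 0.0866 to 0.119 without GA3, GB1 or GB3 and 0.0521 to 0.0526 without CON1 or CON3, and it did not pass in 13 of 21 alternatives, with 0.105 under median-of-ratios scaling. As against CON, the summed stromal markers were lower in GB (15539 to 15641 FPKM) than in GA (17340 to 17740). VIM is the largest part of that sum, and not all members went this way, as PDGFRA was higher in GB than in GA (log2FC 0.33, limma adjusted p = 0.00113). Whether this has a part in the lower HOX levels was not tested.

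**Figure D5:**
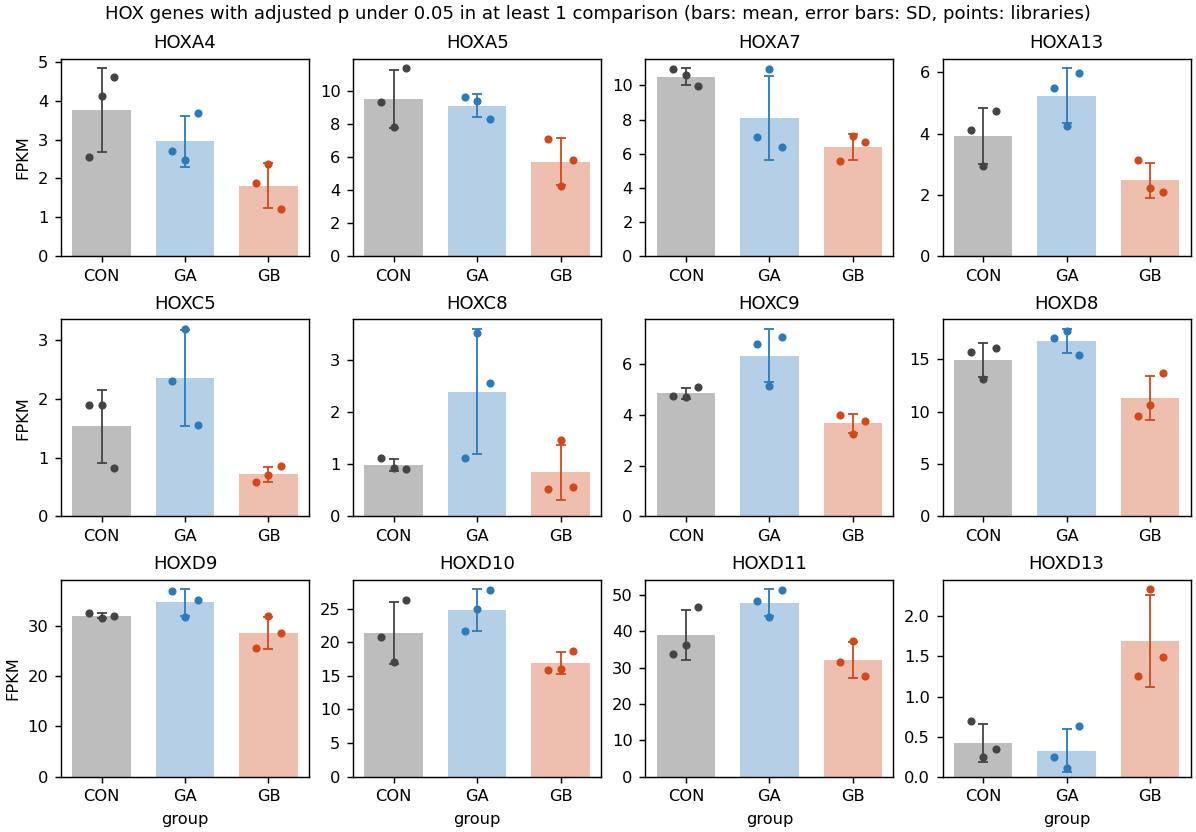
FPKM of the 12 HOX genes with an adjusted p under 0.05 in at least 1 comparison; bars are group means, error bars the SD of 3 libraries and points the libraries, each panel with its own axis from 0. HOXD13 is the only gene with its highest mean in GB, and in all others the GB mean is the lowest of the 3 groups. Of these others, HOXA4, HOXA5 and HOXA7 are highest in CON and the rest are highest in GA.

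Across the 3 groups together, limma's moderated F test passed 8 of 25 HOX genes (HOXC9, HOXD13, HOXA13, HOXD8, HOXA5, HOXD11, HOXC5 and HOXA7) at an adjusted p under 0.05, beside 34.6% of all genes. The share was thus close to that of genes in general, and it includes HOXD13, which entered the tests only through its GB values. Without GB1, GB2 or GB3 the count was 4, 5 or 3. The F test shares of all genes in these 3 fits are not given here. In GB vs. GA the share of all genes passing also fell, from 29.0% to 22.9%, 23.3% and 23.2%, so a loss particular to HOX genes was not shown. The order of the group means was GA, CON, GB from high to low in 15 of the 25 genes and CON, GA, GB in 7. HOXA4, HOXA5 and HOXA7 belonged to the latter, with 2 GA libraries of HOXA7 in the range of GB. Neither order was counted over all genes. Of all genes, 62.3% had a log2FC below 0 in GB vs. GA, while only 34.0% did for GA vs. CON. The orders are therefore not shown to be particular to HOX genes.

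HOX proteins bind DNA together with TALE homeodomain cofactors of the PBX, MEIS and PKNOX families. All 12 cofactor genes were tested. None passed limma's test in GA vs. CON, also at an unadjusted p under 0.05, where 19.3% of all genes passed. In GB vs. CON 1 was higher and 3 were lower, and in GB vs. GA 1 was higher and 4 were lower, with a median log2FC of -0.18 in the latter and none called. These 4 and 5 of 12 stand beside 33.5% and 29.0% of all genes. PBX2 (38.2 ± 2.75 FPKM in CON, 39.3 ± 0.601 in GB, SD, n = 3) and TGIF1, the most abundant, did not pass. MEIS3 was 10.9 ± 1.66 FPKM in GA and 5.83 ± 0.448 in GB, a log2FC of -0.85 (limma adjusted p = 0.000486). PBX3 (log2FC -0.44) and PBXIP1 (-0.53), a protein that binds PBX, also fell against GA, while MEIS2 rose by 0.26.

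The clusters are held silent by Polycomb proteins and kept active by Trithorax proteins. All 22 Polycomb genes were tested. In GB vs. GA 2 were higher and 5 lower, beside 29.0% of all genes in either direction. In GB vs. CON 3 were higher and 7 lower, beside 33.5%. None passed limma's test in GA vs. CON, and 3 had an unadjusted p under 0.05, beside 19.3% of all genes. BMI1, a subunit of Polycomb repressive complex 1, was the single one called, at 28.9, 29.7 and 31.8 FPKM in CON, 33.4, 31.6 and 34.6 in GA and 15.9, 14.1 and 17.6 in GB. The GB libraries lay at about the middle between zero and the others, with a log2FC against GA of -1.04 (SE 0.08, limma adjusted p = 1.56e-05). The most abundant members were RBBP7, which did not pass, and PHC2, which fell with a log2FC of -0.16. EZH2, the methyltransferase of complex 2, had 48.8 FPKM in GA and 52.6 in GB and did not pass. Of 13 Trithorax and H3K27 demethylase genes, 3 were lower and none higher in GB vs. GA, and 1 was higher and 3 lower in GB vs. CON, counts at or below the shares of 29.0% and 33.5% of all genes. In GA vs. CON none passed limma's test and 2 had an unadjusted p under 0.05, beside 19.3% of all genes. The most abundant, DPY30, had a log2FC of -0.21 in GB vs. GA (limma adjusted p = 0.0422), and WDR5, the next, did not pass. KDM6B, a demethylase of H3K27, was 11.2 FPKM in CON, 9.30 in GA and 6.67 in GB, with a log2FC of -0.70 against CON (limma adjusted p = 0.000152).

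Retinoic acid is a classical activator of the anterior HOX genes. Of 18 genes of its pathway 13 could be tested. None passed limma's test in GA vs. CON, and 2 had an unadjusted p under 0.05, beside 19.3% of all genes. There were 2 higher and 5 lower in GB vs. CON, and 5 lower in GB vs. GA, beside 33.5% and 29.0% of all genes. The median log2FC in GB vs. GA was -0.18 (all genes: -0.075). CRABP2, which carries retinoic acid to its nuclear receptor, was 171 ± 12.9 FPKM in CON, 155 ± 5.33 in GA and 92.1 ± 6.56 in GB, a log2FC of -0.75 against GA (limma adjusted p = 4.38e-05). STRA6, the retinol importer and the most abundant member, had a log2FC of -0.05 and did not pass. Of 9 CDX and other upstream factors of the clusters 5 were in the table and 3 were tested, led by CTCF and GDF11, and none passed in any comparison by limma. At an unadjusted p under 0.05, 1 of the 3 passed in each comparison.

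A list of 17 genes of the uterus, which holds targets and partners of HOX proteins and also DRAM1, a gene that the study silenced, had 14 tested. In GB vs. GA 3 were higher and 4 lower, beside 29.0% of all genes. In GB vs. CON 4 were higher and 1 lower, beside 33.5%. None passed limma's test in GA vs. CON, and 3 had an unadjusted p under 0.05, beside 19.3% of all genes. DRAM1, a gene of autophagy, measured 26.9, 32.4 and 35.6 FPKM in CON, 30.9, 31.7 and 34.2 in GA and 113, 114 and 126 in GB, with log2FC of 1.89 against CON and 1.85 against GA. PGR, the progesterone receptor, measured 11.2, 11.7 and 11.2 FPKM in CON, 14.3, 15.1 and 16.6 in GA and 23.3, 22.0 and 25.8 in GB, and was called against CON with a log2FC of 1.03. The groups did not overlap for PGR. WNT5A and ITGB3 were the most abundant, and ITGB3, an integrin regulated by HOXA10 in human endometrium, had a log2FC of -0.11 against GA and did not pass. HAND2 (log2FC -0.31) and MSX2 (-0.70), transcription factors of the uterus, fell against GA, at limma adjusted p of 0.00795 and 0.0132.

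Genes of the same chromosomal regions, from a separate list, were read beside the clusters. In GB vs. GA, 2 of the 5 tested beside HOXA were lower, 2 of the 3 beside HOXB were higher, 1 of the 6 beside HOXC was higher and 2 were lower, and 2 of the 6 beside HOXD were lower, where 29.0% of all genes passed in either direction. In GB vs. CON, 3 of 5, 2 of 3, 3 of 6 and 2 of 6 passed, beside 33.5%. In GA vs. CON none passed limma's test. At an unadjusted p under 0.05, 1 passed beside HOXA, 1 beside HOXB and 3 beside HOXD, where 19.3% of all genes passed. The most abundant ones were HNRNPA1 beside HOXC, with a mean of 1403 FPKM, and ATP5MC2, ATP5MC3 and HNRNPA3, with TAX1BP1 beside HOXA and NFE2L1 beside HOXB. CALCOCO2, an autophagy receptor close to the posterior end of HOXB, was the only listed flanking gene called, at 17.0, 17.8 and 16.2 FPKM in CON, 21.3, 19.8 and 18.2 in GA and 83.1, 86.5 and 84.4 in GB. All GB libraries stood far above the rest, with a log2FC of 2.07 against GA (SE 0.07, limma adjusted p = 1.46e-08). Of the HOXB genes beside it, HOXB9 stayed under the limit of 0.5 FPKM in the mean, and HOXB8, HOXB7 and HOXB6 passed no test. Beyond CALCOCO2 by the RefSeq order, ATP5MC1 was lower in GB than in GA, with a log2FC of -0.28 (limma adjusted p = 0.00973). On the other side of HOXB, COPZ2 was lower, with a log2FC of -0.22 (limma adjusted p = 0.044), and NFE2L1 was higher, with 0.24. On the HOXD side, LNPK and MTX2, the nearest genes with values on either side, had log2FC of -0.09 and 0.06 in GB vs. GA and did not pass, while HOXD8, HOXD9, HOXD10 and HOXD11 between them were lower. HIBADH and SKAP2, the nearest genes on either side of HOXA that could be tested, had log2FC of -0.02 and -0.0049 in GB vs. GA. SNX10, beyond SKAP2, measured 15.2, 11.1 and 7.77 FPKM in CON, 12.8, 11.5 and 11.9 in GA and 4.86, 8.77 and 6.15 in GB, and fell against GA by a log2FC of -0.86 (limma adjusted p = 0.0254). SMUG1 and CALCOCO1, the nearest genes with values beside HOXC, fell by log2FC of -0.33 and -0.41 (limma adjusted p = 0.0175 and 0.0064).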

How the data were processed

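RNA-seq of 9 libraries (3 of CON, 3 of GA and 3 of GB, as labelled) was used. Per the methods, poly(A) RNA was made into directional libraries, reads were trimmed with fastp 0.21.0, cleared of rRNA with Bowtie2 2.33, aligned to ARS-UCD1.2 with HISAT2 2.2.1 and counted with RSEM 1.3.3. No source used here gives the strand setting or the annotation release. From these counts the authors computed FPKM, deposited with 2 decimals for each gene in each library. The FPKM table holds no read counts, so that the depth behind a value is unknown and no count test was run. FPKM summed to between 1395620 and 1442720 per library.

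Analyses were done in R 4.3.3 with limma 3.58.1 on log2(FPKM + 0.5), and figures were drawn with matplotlib 3.10.9. Genes with a mean FPKM under 0.5 were left out, and 12578 of 17162 remained. A model with a mean per group was fitted to the 9 libraries with a variance trend, and p-values were adjusted over all genes by Benjamini-Hochberg. The procedure was tested on simulated data. Libraries of a group correlated at 0.989 to 0.991 and none were identical. Same-numbered replicates of different groups did not deviate together (correlations of -0.031 to 0.077), so the replicate number was not used as a block.

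Named with values in each library were the HOX genes with an adjusted p under 0.05 in any test, the 5 most abundant, HOXA10, HOXA11 and those in the study's own lists. From each other list the genes called, the most abundant 2 and, for markers, the most abundant 3 and those at 0 were named. Further genes were chosen after their values were seen, among them PDGFRA, ATP5MC1, COPZ2, EZH2, KDM6B, MEIS3, CRABP2, HAND2, MSX2 and the neighbours of the clusters. For 1 of the 36 HOX genes, under the limit of 0.5 FPKM, values are not reported here. The HOX genes and all lists were chosen with earlier results of these data known. Gene names matched RefSeq (ARS-UCD2.0) for all 36 HOX genes, and this table was used only for neighbours and overlaps, of which 14 of the 36 have one with another HOX gene. Alternatives were other pseudocounts, filters and scalings, no variance trend, the 2 groups alone, the replicate block, each library's GC content from the study's sequencing table as a covariate, and leaving out each library.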

Additional observations from a re-analysis of the deposited data

How the results depend on the processing

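In GB vs. GA, HOXA13, HOXC5, HOXC9, HOXD8 and HOXD11 passed limma's test under all 21 alternatives. HOXD13 entered the tests only through its GB values, and a filter at a mean of 1 FPKM left it out. In GA vs. CON no HOX gene passed under any alternative. The calls at a log2FC past 1 or -1 followed the pseudocount: in GB vs. CON they numbered 0 at a pseudocount of 1 and 2 at 0.1, and in GB vs. GA 1 and 4. In GB vs. CON the number called was also 0 with the filter at a mean of 1 FPKM and 0 with library GC content as a covariate. It was 1 to 2 when each library was left out in turn. The shares of all genes called under these alternatives are not given here, so a shift particular to HOX genes was not shown. The HOX genes at an adjusted p under 0.05 in GB vs. CON numbered 8 with quantile normalization, beside 35.7% of all genes. They numbered 2 with library GC content and 1 with GC content and the replicate block together. Of all genes, 11.7% and 4.09% passed in these 2 fits, against 33.5% in the main fit, so the loss ran over the whole table. Without 1 library they numbered 3 to 8, beside 26.4% to 32.3% of all genes. The 8 came without CON2 and the 3 without CON3, GB1 or GB2. In the F test the count was 3 to 10 without 1 library, and the matching shares of all genes are not given here. In GB vs. GA the count at an adjusted p under 0.05 was 7 to 11 without 1 library, beside 21.7% to 32.6% of all genes. With GC content it was 12, beside 32.4%. With the replicate block alone, 0, 7 and 10 HOX genes passed in GA vs. CON, GB vs. CON and GB vs. GA. The shares of all genes were 0.421%, 32.3% and 27.3%. HOXD8 in GB vs. CON (adjusted p = 0.0587) and HOXD9 in GB vs. GA (0.0725) no longer passed. The adjusted p under 0.05 of HOXC8 (14 of 21 alternatives) and HOXD9 (13 of 21) in GB vs. GA and of HOXD8 in GB vs. CON (13 of 21) were lost in most alternatives. The replicate numbers were not found to pair the samples.

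The direction turned in genes that passed no test in the comparison concerned. The log2FC of HOXA10 in GA vs. CON was -0.23 with GC content and -0.17 with GC content and the block, and in GB vs. CON it was -0.26 to 0.17 without 1 library, above 0 without CON3 (0.17) and GB3 (0.06). HOXA11 in GB vs. GA had -0.26 to 0.059 without 1 library, above 0 only without GB1. HOXA9 in GA vs. CON had -0.49 with GC content, -0.65 with GC content and the block, and -0.11 to 0.16 without 1 library, below 0 without CON2 (-0.11) and GA2 (-0.0046). HOXD9 in GA vs. CON had -0.080 with GC content and the block. The causes were not tested. Among the values of single genes, 62 lost the threshold with the same direction, 10 gained it and 510 stayed on their side. Depth is unknown, and for HOXD13, HOXC5, HOXC8 and the 11 genes under 0.5 FPKM the 2 decimals of the table and few fragments limit what can be told.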
